A study of Rattus norvegicus with 18 samples.

Results

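Genes of the respiratory chain and of ATP synthase were followed in medullary thyroid carcinomas of MENX rats, which have a mutant Cdkn1b gene for the cell cycle inhibitor p27Kip1. These tumours arise from the C cells that make calcitonin. The genes were those whose symbol names a subunit of complex I (Nduf), complex II (Sdh), complex III (Uqcr), complex IV (Cox4 to Cox8), complex V (Atp5) or the carrier cytochrome c (Cycs), with assembly factors left out. Of 14506 genes with a probe set of their own, 77 met this rule, and 75 of these were bright enough to be among the 11370 genes tested. Cox8c, a testis isoform of complex IV, and the pseudogene Cox6c-ps1 lay below the brightness filter. The 32 genes of complex I included Ndufa4, whose product is now assigned to complex IV. Complex II had 4 genes, complex III 7, cytochrome c 1, complex IV 15 with 14 tested, and complex V 16, among them its inhibitor Atp5if1. Ndufs6-ps1, an annotated pseudogene, was also tested and is counted with all genes of the rule but with no complex. The subunits encoded by mitochondrial DNA are not analysed here.

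The study compared 6 tumours of homozygous mutants at 9 months and 6 tumours of heterozygous mutants at 18 months with 6 tumours of heterozygous mutants at 9 months. The rats were of mixed strain, Sprague–Dawley white eye/Wistar–Kyoto, were untreated, and all carried the mutation in at least 1 copy. Each array had its own animal code, so replicates are tumours of different rats, and normal thyroid was not analysed here. Cdkn1b itself measured 10.96 to 11.25 in homozygous tumours, 10.65 to 11.10 in 18-month tumours and 10.67 to 10.90 in heterozygous tumours at 9 months, and whether its probes meet the mutated stretch is not known. RNA was hybridised to Affymetrix arrays, and the values are normalised log2 expression, on which a difference of 1 is a doubling of the signal. Because brightness differs between probe sets, levels are compared between tumours and never between genes.

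Mitochondria make most of the ATP of a resting cell. Complexes I and II pass electrons from NADH and succinate to ubiquinone, complex III passes them on to cytochrome c, and complex IV hands them to oxygen. Complexes I, III and IV pump protons, and complex V lets the protons flow back and makes ATP from ADP. Complex II also is an enzyme of the tricarboxylic acid cycle, and inherited loss of its genes is a known cause of the neuroendocrine tumours paraganglioma and phaeochromocytoma in humans.

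The specimens expressed the C cell genes of their label, with Calca, the calcitonin gene, at a mean of 14.1 in heterozygous tumours at 18 months, 13.9 in homozygous tumours at 9 months and 13.8 in heterozygous tumours at 9 months. Markers of other tissues were also measured. The mean of 8 C cell markers ran from 11.9 to 12.7 in homozygous tumours at 9 months, from 12.3 to 12.8 in heterozygous tumours at 18 months and from 11.6 to 12.0 in heterozygous tumours at 9 months. The mean of 10 follicular markers ran from 10.01 to 10.91 in the homozygous tumours, from 7.36 to 10.73 in the 18-month tumours and from 10.89 to 10.99 in the heterozygous tumours at 9 months. The mean of 16 skeletal muscle markers ran from 7.09 to 11.49 in homozygous tumours, from 6.85 to 10.41 in 18-month tumours and from 8.95 to 10.99 in heterozygous tumours at 9 months. In bulk tissue fewer cells of a type and less RNA per cell cannot be told apart. Replicates 4 and 5 of the 18-month group stood apart from the other tumours of that group, with follicular means of 10.7 and 10.5 against 7.36 to 9.34. Counts for the age comparison are therefore also given without them.

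At the same age of 9 months no subunit gene passed the test between homozygous and heterozygous tumours, and most had a slightly lower mean in the homozygous tumours. Limma called 0 of the 75 genes, as it called 0 of all 11370 genes (0%, Benjamini-Hochberg adjusted p under 0.05). At an unadjusted p under 0.05 it found 18 subunit genes, all of them lower, beside 995 of all genes (8.75%), of which 422 were lower (3.71%). The difference in means was below 0 for 65 of the 75 genes (86.7%), against 49.2% of all genes. The median difference was -0.09 for the subunit genes and 0.0022 for all genes. All 7 complex III genes and all 4 complex II genes lay below 0, with medians of -0.12 and -0.17. In complex I 29 of 32 lay below 0 (median -0.10, and -0.067 without homozygous replicate 2), in complex V 13 of 16 (-0.06) and in complex IV 10 of 14 (-0.041, and -0.062, -0.064 and -0.065 without homozygous replicates 4, 5 and 6).

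One homozygous tumour lay lower than the others. For each tumour the median deviation of the 75 genes from their 18-tumour means was -0.169 in homozygous replicate 2 and between -0.054 and 0.015 in the other 5 homozygous tumours. The heterozygous tumours at 9 months lay between -0.027 and 0.099, with 5 of 6 above 0. Without homozygous replicate 2 the median difference was -0.057, 61 of the 75 genes lay below 0, and 7 instead of 18 had an unadjusted p under 0.05. That number also depended on other tumours, with 10 genes without heterozygous replicate 1 or 5 of 9 months and 11 without homozygous replicate 3, and with the C cell marker mean as a covariate it was 7 lower and 1 higher. The share of all genes at that p was counted only in the fit of all 18 tumours without covariates. Whether such drops are particular to the subunit genes was thus not tested. The median deviation over all genes was 0.00025 in homozygous replicate 2, within the range of the others. This tumour also had the lowest muscle marker mean of its group (7.09) and its lowest parathyroid marker mean (8.67). With the muscle mean as a covariate 66 of the 75 genes lay below 0 (median -0.075), 13 of them at an unadjusted p under 0.05. With the parathyroid mean 65 lay below 0 (median -0.084), 15 of them at that p. Whether these tissues account for the low values of this tumour was not tested.

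With age the picture was uneven. At 18 months 4 of the 75 genes rose and 17 fell against heterozygous tumours at 9 months, 28.0% in all. Over all 11370 genes 44.1% changed, 21.6% upwards and 22.4% downwards (limma, adjusted p under 0.05). The share of subunit genes that fell was thus near that of all genes (22.7%), and the share that rose was smaller (5.33%). The difference lay below 0 for 48 of the 75 genes (64.0%), against 50.7% of all genes. Differences had a median size of 0.0922 for the subunit genes and 0.200 for all genes, and no subunit gene reached a difference of 1, against 967 of all genes (8.50%). For Ndufb2 every 18-month tumour lay above every heterozygous tumour at 9 months, and for 8 genes every one lay below. Over all genes 9.07% lay wholly above and 9% wholly below. Without replicates 4 and 5 of the 18-month group 7 subunit genes rose and 19 fell. Over all 11370 genes 3068 then rose and 3063 fell, against 2458 and 2551 with them. With each array centred on its median 5 subunit genes rose and 11 fell, beside 2503 and 2328 of all genes.

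Marker levels of several cell types moved with these calls. C cell marker means of the 2 age groups did not overlap (12.3 to 12.8 at 18 months, 11.6 to 12.0 at 9 months), and neither did follicular means (7.36 to 10.73 at 18 months, 10.89 to 10.99 at 9 months). The mean of 11 endothelial markers did not overlap either (8.23 to 9.96 at 18 months, 9.99 to 10.19 at 9 months). Of the tested markers 6 of 8 for C cells rose, and 8 of 9 follicular and all 11 endothelial ones fell. All 9 tested white adipocyte markers also fell, and the mean of the 10 found overlapped (6.93 to 8.22 at 18 months, 7.83 to 9.10 at 9 months). The part of the endothelial and white adipocyte markers in the result was not tested. With the C cell mean as a covariate limma called 0 of the 75 genes and 0 of all 11370 genes, with 1 subunit gene higher and 2 lower at an unadjusted p under 0.05. With the follicular mean it called 1 subunit gene, Sdha, which fell, and 156 of all genes. Age and these marker levels cannot be told apart in the groups. The comparisons of genotype and of age share the heterozygous tumours at 9 months, so low values of a gene in both can come from the same 6 arrays.

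**Figure D1:**
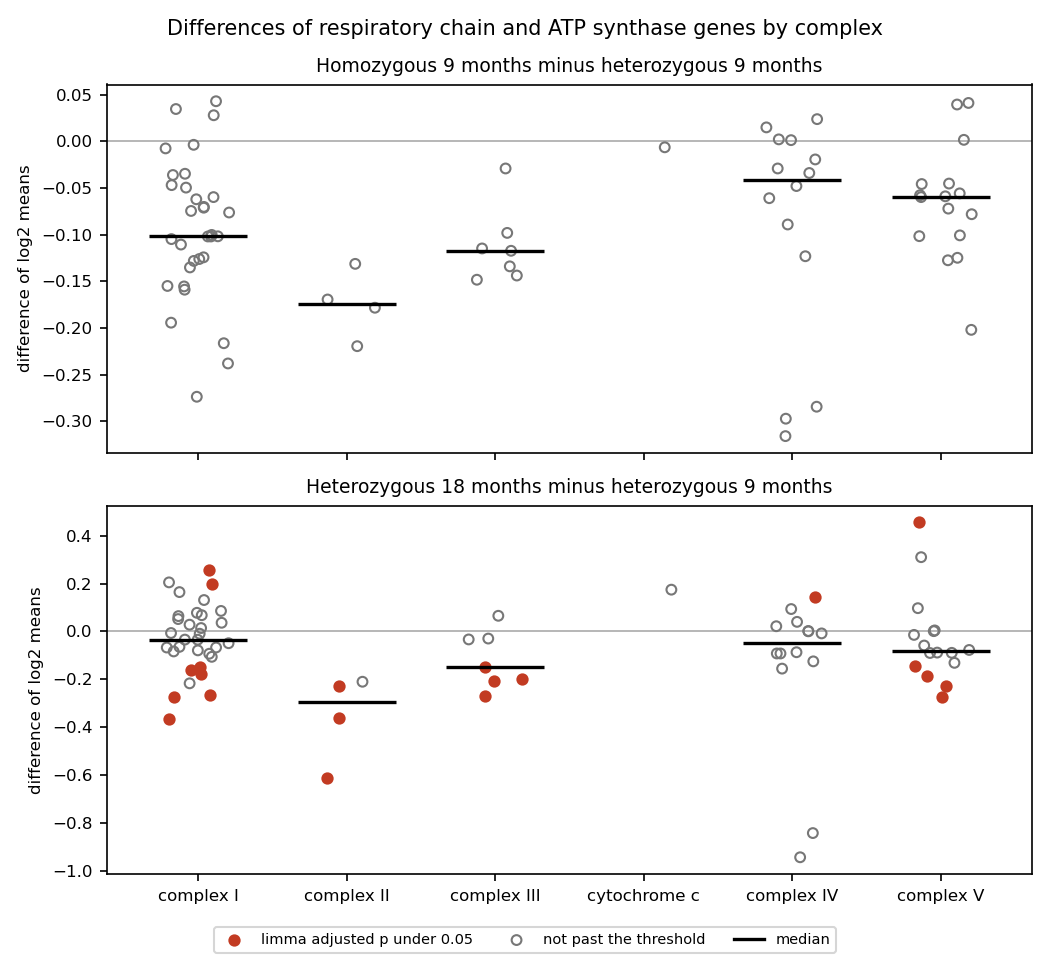
Difference of log2 means for each tested subunit gene (points), by complex, with the median of each complex as a line. The upper panel shows homozygous minus heterozygous tumours at 9 months, where 0 of 75 genes passed the test. The lower panel shows heterozygous tumours at 18 minus 9 months, where filled points mark the 4 genes that rose and the 17 that fell. Complex II has the lowest median of the complexes in both panels, and 2 muscle isoforms of complex IV lie near -0.9 in the lower panel without passing.

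Complex I, the NADH dehydrogenase, is the largest complex of the chain. In the age comparison 2 of its 32 genes rose and 6 fell, with a median of -0.034 that was -0.011 without 18-month replicate 4, -0.018 without 18-month replicate 5, and -0.017 and -0.016 without heterozygous replicates 4 and 5 of 9 months. Of these 32 genes 18.8% fell and 6.25% rose with age, beside 22.4% and 21.6% of all genes. In the genotype comparison 9 had an unadjusted p under 0.05, all lower, where 3.71% of all genes were lower at that p. Its core subunits that are encoded in the nucleus carry the flavin and the iron-sulphur clusters or sit next to them, and 6 of these were measured. Ndufv1, which binds NADH, fell by 0.16 at 18 months (SE 0.06, limma adjusted p = 0.0307). Its lowest, median and highest values were 10.47, 10.61 and 10.72 in the 18-month tumours and 10.70, 10.73 and 10.92 in heterozygous tumours at 9 months. The groups overlapped narrowly, and the difference was -0.13 with an adjusted p of 0.0798 by limma without heterozygous replicate 3 of 9 months, the highest tumour. The call was also lost without heterozygous replicate 1 of 9 months (-0.16, limma adjusted p = 0.0524) and without 18-month replicates 3 (-0.14, adjusted p = 0.0749) and 6 (-0.14, adjusted p = 0.07).

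Ndufs7, which passes electrons to ubiquinone, fell by 0.18 (SE 0.07, limma adjusted p = 0.0455), with overlapping groups. Its call held in 8 of 18 fits that each left out 1 tumour, with differences from -0.22 to -0.14. Leaving out a homozygous tumour cannot change this or any other age difference, only the spread shared by the 3 groups. The other core subunits measured did not pass. The difference with age was 0.06 for Ndufs1, -0.08 for Ndufs3, -0.07 for Ndufs8 and -0.07 for Ndufv2, the subunit paired with Ndufv1. In homozygous tumours Ndufs3 measured 9.54, 9.66 and 9.96 as lowest, median and highest, against 9.80, 9.92 and 10 in heterozygous tumours at 9 months. Most homozygous tumours were low, the groups overlapped, and the difference was -0.22 (SE 0.07, limma adjusted p = 0.409).

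The accessory subunits of complex I brace and seal the core. Ndufb3, a subunit of the membrane arm, fell most in this complex. It measured 8.71, 8.90 and 9.14 in 18-month tumours as lowest, median and highest, and 9.15, 9.31 and 9.39 in heterozygous tumours at 9 months. No value of the older group reached the younger one, and the fall was 0.36 (SE 0.09, 0.777-fold, limma adjusted p = 0.00385). Homozygous tumours lay between and across both, at 8.83, 9.08 and 9.33, and differed by -0.24 from heterozygous ones of the same age (SE 0.09, limma adjusted p = 0.502). Ndufb4, another membrane arm subunit, fell by 0.27 at 18 months (SE 0.08, limma adjusted p = 0.0131), and its 2 probe sets gave -0.27 and -0.24. Processed pseudogenes of subunit genes can share sequence with them, and whether probe sets here also read such copies was not tested, so that 2 probe sets of a gene may not be independent.

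Ndufb2 and Ndufb8 of the same arm rose. Ndufb2 measured 9.79, 9.88 and 10.02 in 18-month tumours and 9.61, 9.69 and 9.75 in heterozygous tumours at 9 months, again as lowest, median and highest. Every older tumour lay above every younger one, and the rise was 0.20 (SE 0.06, 1.15-fold, limma adjusted p = 0.0121). Ndufb8 rose by 0.26 (SE 0.09, limma adjusted p = 0.0262) with values of 9.53, 9.86 and 10.10 against 9.40, 9.62 and 9.71. Its groups overlapped, and the call was lost without 18-month replicates 1 (0.24, limma adjusted p = 0.0555), 2 (0.22, 0.067) or 6 (0.21, 0.0662) or heterozygous replicate 4 of 9 months (0.22, 0.0651). Ndufv3, a small subunit of the electron input arm, fell by 0.15 in its brighter probe set (SE 0.04, limma adjusted p = 0.00927) and differed by -0.02 in its other one, which did not pass.

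Ndufa4 was named for complex I and is now known as a subunit of complex IV. Its lowest, median and highest values were 11.73, 11.96 and 12.17 in homozygous tumours, 11.81, 11.94 and 12.13 in 18-month tumours and 12.17, 12.23 and 12.27 in heterozygous tumours at 9 months. All 6 tumours of both other groups lay below all 6 of that group, which was also the tightest. Against it the 18-month tumours fell by 0.27 (SE 0.07, limma adjusted p = 0.0062). The homozygous tumours also differed by -0.27 and missed the threshold (SE 0.07, limma adjusted p = 0.289). It was the single subunit gene without overlap between the genotypes, where 0.915% of all genes lay wholly below. The genotypes nearly touched, at 12.169 in homozygous replicate 1 and 12.171 in heterozygous replicate 2 of 9 months. With array weights Ndufa4 passed in the genotype comparison (-0.26, limma adjusted p = 0.0359), in a fit that called 118 of all 11370 genes. Without homozygous replicate 2 the difference between the genotypes was -0.23. Of the genes higher in homozygous tumours, Ndufs7 at 0.04 and Ndufa5, a subunit of the matrix arm, at 0.03 had the smallest p in this complex, both within the spread between tumours.

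Complex II, succinate dehydrogenase, has 4 subunits: the flavoprotein Sdha, the iron-sulphur protein Sdhb and the membrane anchors Sdhc and Sdhd. At 18 months 3 of the 4 fell (75%, beside 22.4% of all genes), with a median of -0.30. Sdha showed the largest change among all subunit genes that passed. It measured 10.39, 10.49 and 10.85 in 18-month tumours as lowest, median and highest, 10.73, 11.001 and 11.10 in homozygous tumours, and 11.07, 11.20 and 11.27 in heterozygous tumours at 9 months. Every 18-month tumour lay below every heterozygous tumour at 9 months, with replicates 4 and 5 highest in their group at 10.80 and 10.85. Sdha fell by 0.61 (SE 0.09, 0.653-fold, limma adjusted p = 0.00024), and by 0.74 without those 2 replicates. In homozygous tumours the difference was -0.22 (SE 0.09, limma adjusted p = 0.503). With the follicular marker mean as a covariate the fall with age was 0.36 (limma adjusted p = 0.048), and with the C cell mean the difference was -0.18 (limma adjusted p = 0.715).

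Sdhd measured 9.73, 10.02 and 10.16 in 18-month tumours, 10.07, 10.23 and 10.42 in homozygous tumours and 10.18, 10.37 and 10.54 in heterozygous tumours at 9 months. The older heterozygous group lay wholly below the younger one, and the fall was 0.36 (SE 0.08, limma adjusted p = 0.00188). Sdhc fell by 0.23 (SE 0.07, limma adjusted p = 0.0117) with overlapping groups. Sdhb differed by -0.21 and did not pass (SE 0.09, limma adjusted p = 0.0753), although it did with array weights (-0.29, adjusted p = 0.014) and without 18-month replicates 1 (-0.28, limma adjusted p = 0.0159) or 4 (-0.25, 0.0322) or heterozygous replicate 6 of 9 months (-0.25, 0.0483). Between the genotypes the 4 differences ran from -0.22 to -0.13 and none passed.

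The promoters of the 3 complex II genes that fell are shown because these genes moved together. Each is a window of 300 bases in RefSeq (rat assembly GRCr8) that ends shortly after the start of the gene, read 5′ to 3′ on the strand of the gene, at chr1:30764303-30764602 (plus strand) for Sdha, chr13:86097976-86098275 (minus strand) for Sdhc and chr8:59850592-59850891 (minus strand) for Sdhd. Capitals mark exact matches, on either strand, of motifs of factors known to drive mitochondrial genes. These were GCGCA, any base and GCGC for Nrf1, CCGGAAG of the ETS factor GABP, AAGATGGCG of Yy1 and TCAAGGTCA of the oestrogen-related receptor alpha.
Sdha: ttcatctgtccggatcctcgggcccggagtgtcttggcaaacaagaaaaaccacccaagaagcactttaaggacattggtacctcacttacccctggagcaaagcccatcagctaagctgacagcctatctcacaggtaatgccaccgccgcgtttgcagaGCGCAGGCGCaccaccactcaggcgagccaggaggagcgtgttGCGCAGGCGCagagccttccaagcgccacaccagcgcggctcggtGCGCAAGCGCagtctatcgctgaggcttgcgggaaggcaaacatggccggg
Sdhc: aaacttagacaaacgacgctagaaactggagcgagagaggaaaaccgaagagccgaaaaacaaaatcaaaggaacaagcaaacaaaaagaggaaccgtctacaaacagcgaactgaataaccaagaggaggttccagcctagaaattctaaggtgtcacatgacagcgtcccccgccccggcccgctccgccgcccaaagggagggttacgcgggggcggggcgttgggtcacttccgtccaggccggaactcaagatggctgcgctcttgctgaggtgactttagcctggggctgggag
Sdhd: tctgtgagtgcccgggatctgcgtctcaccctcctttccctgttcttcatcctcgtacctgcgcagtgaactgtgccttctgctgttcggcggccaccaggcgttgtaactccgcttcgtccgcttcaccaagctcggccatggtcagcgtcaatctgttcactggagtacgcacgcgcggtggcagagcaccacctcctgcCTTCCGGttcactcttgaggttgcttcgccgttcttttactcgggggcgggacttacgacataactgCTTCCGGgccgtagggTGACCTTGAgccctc
Sdha held 3 Nrf1 motifs, Sdhd held 2 GABP motifs and 1 of the oestrogen-related receptor alpha, and the Sdhc window held no exact match of the 4.

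Promoters of 67 of the 77 genes were found in the RefSeq table. The Nrf1 motif was in 13 of these (19.4%), against 9.02% of the 9401 promoters of tested genes and 4.25% of all 33469. The GABP motif was in 20 (29.9%), against 15.8% of tested genes and 8.75% of all, and the Yy1 motif in 8 (11.9%), against 3.32% and 1.73%. That of the oestrogen-related receptor alpha was in 2 (2.99%), against 0.213% and 0.433%. The Nrf1 motif is a near palindrome, so 1 stretch can match on both strands, each promoter was counted once per motif, and in the windows printed no match overlapped that of another motif. None of the 12 complex IV promoters held the Nrf1 motif and 4 held that of GABP. A match is a string of letters and does not show that a factor binds there.

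**Figure D2:**
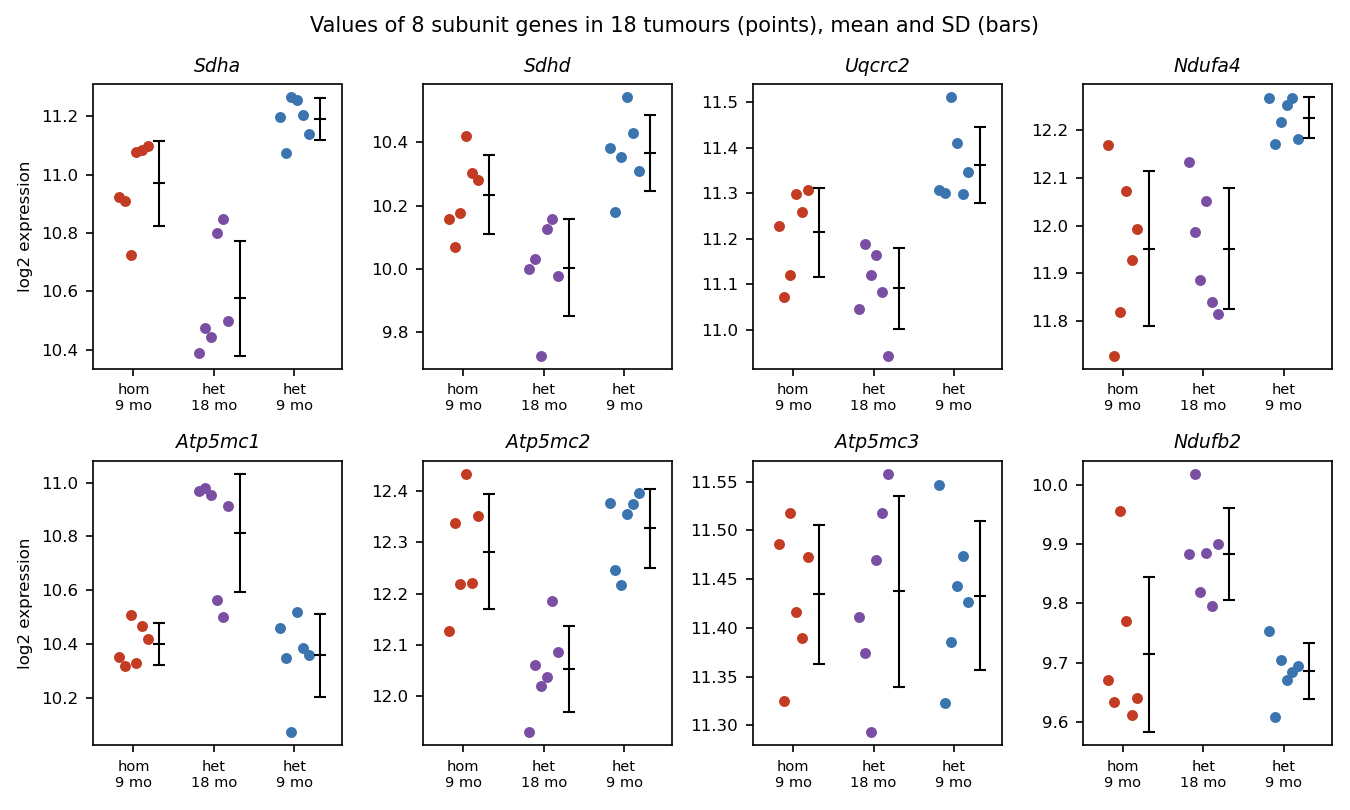
Log2 expression of 8 subunit genes in each of the 18 tumours (points) with the mean and SD of each group of 6 (bars), for homozygous tumours at 9 months, heterozygous tumours at 18 months and heterozygous tumours at 9 months. Sdha, Sdhd, Uqcrc2, Ndufa4 and Atp5mc2 lie lower and Ndufb2 higher in all 18-month tumours than in heterozygous tumours at 9 months, while Atp5mc1 is high in 4 of them and Atp5mc3 spans the same range in all groups.

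Complex III, the cytochrome bc1 complex, had a median of -0.15 with age. Of its 7 genes 4 fell (57.1%, beside 22.4% of all genes) and none rose. Uqcrc2, a core subunit on the matrix side, measured 10.94, 11.10 and 11.19 in 18-month tumours as lowest, median and highest and 11.30, 11.33 and 11.51 in heterozygous tumours at 9 months. No older tumour reached the younger group, and the fall was 0.27 (SE 0.06, 0.829-fold, limma adjusted p = 0.00174). In homozygous tumours it measured 11.07, 11.24 and 11.31, and the difference was -0.15 (SE 0.06, limma adjusted p = 0.503).

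Uqcrfs1, the Rieske iron-sulphur protein that takes electrons from ubiquinol, fell by 0.21 (SE 0.07, limma adjusted p = 0.0237). It lost the call without heterozygous replicate 3 of 9 months (-0.15, limma adjusted p = 0.055) and without 18-month replicate 6 (-0.19, adjusted p = 0.0508). Uqcrc1, the partner of Uqcrc2, fell by 0.15 (SE 0.06, limma adjusted p = 0.0434), a call that held in 8 of 18 fits that each left out 1 tumour (-0.18 to -0.12). Each fit that lost it left out a heterozygous tumour, and the fits without a homozygous tumour could not change its difference. The small subunit gene Uqcr11, named after its values were seen, fell by 0.20 (limma adjusted p = 0.0176). The remaining 3 genes, all small subunits, lay within -0.03 and 0.07 and did not pass. Between the genotypes all 7 differences lay between -0.15 and -0.03.

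Cycs, cytochrome c, carries electrons between complexes III and IV and also starts apoptosis when it leaves the mitochondrion. It measured 11.43, 11.57 and 11.81 in 18-month tumours and 11.29, 11.44 and 11.58 in heterozygous tumours at 9 months, as lowest, median and highest. The groups overlapped and the difference of 0.17 missed the threshold (SE 0.08, limma adjusted p = 0.0894), passing, of the alternatives run, only without 18-month replicate 3 (0.21, limma adjusted p = 0.0497). Between the genotypes it differed by -0.0065 (SE 0.08).

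Complex IV, cytochrome c oxidase, had 1 of 14 tested genes that rose with age and 0 that fell, with a median of -0.048 that was -0.027 without 18-month replicate 3 and -0.028 without heterozygous replicate 1 of 9 months. Over all genes 21.6% rose and 22.4% fell. The complex IV gene that rose was Cox5b, a subunit of the matrix side, by 0.15 (SE 0.06, limma adjusted p = 0.0486). Its values were 9.66, 9.73 and 9.97 in 18-month tumours and 9.55, 9.60 and 9.69 in heterozygous tumours at 9 months, so the groups overlapped. This call held in 4 of 18 fits that each left out 1 tumour, with differences from 0.10 to 0.17 and limma adjusted p-values up to 0.12. Cox4i1, a core nuclear subunit that binds ATP, differed by -0.09 with age and by -0.09 between the genotypes, and Cox5a by -0.0083 and 0.02. In the age comparison Cox4i1 fell with array weights (-0.11, limma adjusted p = 0.0489) and after a further quantile normalization (-0.12, limma adjusted p = 0.0445). The smallest p between the genotypes was that of Cox7b. It measured 10.73, 11.17 and 11.33 in homozygous tumours and 11.26, 11.39 and 11.52 in heterozygous tumours at 9 months. Most homozygous tumours were low, with replicate 2 lowest, and the difference of -0.28 did not pass (SE 0.09, limma adjusted p = 0.407; -0.21 without replicate 2).

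Several complex IV subunits come as tissue isoforms. Cox6a1, the form of liver and most tissues, measured 12.01, 12.12 and 12.30 in homozygous, 12.03, 12.19 and 12.25 in 18-month and 12.08, 12.14 and 12.27 in heterozygous tumours at 9 months, and differed by 0.00050 with age (SE 0.06). Cox8a differed by -0.09 (SE 0.05) and Cox7a2 by 0.09 (SE 0.11), and neither passed, although Cox8a did after a further quantile normalization (-0.17, limma adjusted p = 0.0456). Cox4i2, the form of lung and of low oxygen, averaged 6.59 over all tumours, near the brightness filter of 6.32, where a difference is hard to see. It differed by 0.0017 with age, and Cox6b2, the testis form, differed by -0.13 (SE 0.12).

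The heart and skeletal muscle forms Cox6a2 and Cox8b spread far more within groups. Cox6a2 measured 7.37, 8.65 and 10.20 in homozygous, 7.40, 8.14 and 9.40 in 18-month and 8.05, 9.14 and 9.77 in heterozygous tumours at 9 months. Cox8b measured 6.62, 7.19 and 8.56 in homozygous, 5.86, 6.86 and 7.81 in 18-month and 6.63, 7.57 and 9.60 in heterozygous tumours at 9 months. All groups overlapped widely, and the differences with age, -0.84 (SE 0.46) for Cox6a2 and -0.94 (SE 0.49) for Cox8b, were the largest of all subunit genes but did not pass (limma adjusted p of 0.145 and 0.13).

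Over the 18 tumours Cox6a2 followed the mean of 16 skeletal muscle markers, with Pearson's r = 0.975 and Spearman's rho = 0.955 (permutation p = 1e-05 for each, the smallest that 100000 permutations can give, two-sided; adjusted p for r over the 2 genes 2e-05). Within groups r was 0.987 in homozygous, 0.958 in 18-month and 0.992 in heterozygous tumours at 9 months, and it was 0.975 without the 2 tumours farthest from the median of the marker mean. For Cox8b r was 0.774 (permutation p = 0.00015, adjusted p = 0.00015) and rho 0.810 (permutation p = 0.00012). Within the same groups r was 0.820, 0.818 and 0.787, and it was 0.682 without the 2 farthest tumours. The markers and both isoforms were read from the same arrays. Cox8b is also a gene of brown fat. The mean of 6 brown fat markers, of which 3 passed the brightness filter, ran from 6.53 to 7.32 in homozygous tumours and from 6.54 to 7.16 in 18-month tumours. It ran from 6.30 to 7.57 in heterozygous tumours at 9 months. Replicate 3 of that group had both the highest brown fat mean (7.57) and the highest Cox8b value (9.60) of all tumours. The part of brown fat in the result was not tested.

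**Figure D3:**
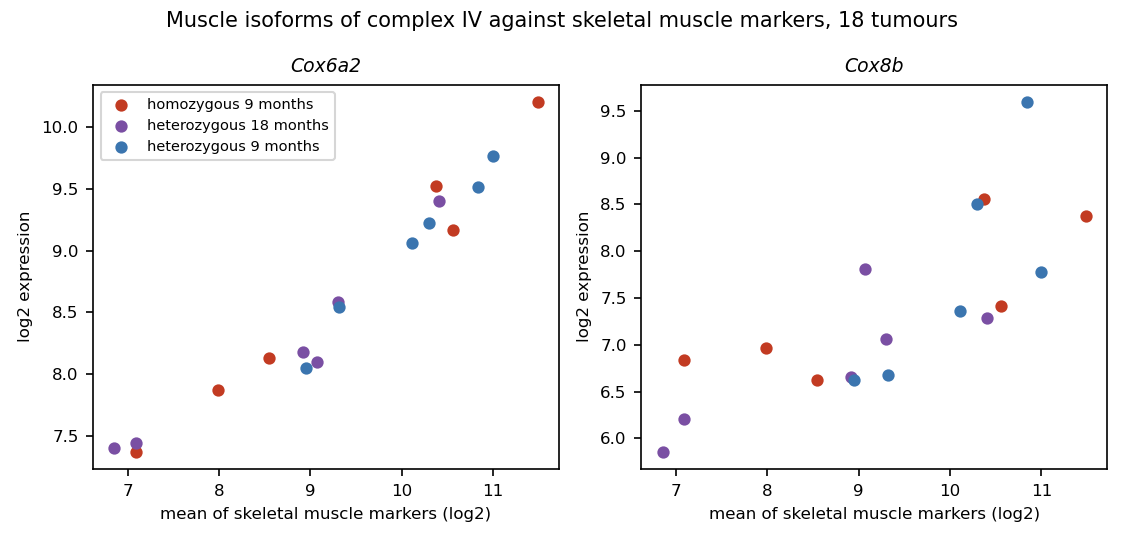
Log2 expression of the muscle isoforms Cox6a2 (left) and Cox8b (right) against the mean log2 value of 16 skeletal muscle markers in 18 tumours, coloured by group. Cox6a2 follows the marker mean closely in all 3 groups (r = 0.975), and Cox8b follows it with more scatter (r = 0.774), with 1 heterozygous tumour at 9 months at 9.60.

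Complex V, ATP synthase, had a median of -0.08 with age. It had 1 of 16 genes that rose (6.25%, beside 21.6% of all genes) and 4 that fell (25%, beside 22.4%). In its catalytic head, Atp5f1a, the alpha subunit, measured 11.45, 11.59 and 11.71 in 18-month tumours as lowest, median and highest and 11.77, 11.80 and 11.89 in heterozygous tumours at 9 months. The older tumours lay wholly below the younger ones, and the fall was 0.23 (SE 0.05, limma adjusted p = 0.00306). Atp5f1b, the beta subunit that holds the catalytic sites, fell by 0.14 (SE 0.06, limma adjusted p = 0.0459). Its groups overlapped and its call held in 5 of 18 fits that each left out 1 tumour (-0.18 to -0.12). Atp5f1c, the gamma subunit of the turning shaft, differed by -0.09 and did not pass (SE 0.05, limma adjusted p = 0.173).

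The ring of c subunits turns as protons pass. In mammals 3 genes, Atp5mc1, Atp5mc2 and Atp5mc3, encode the same mature c subunit behind different import sequences, and with age 1 of them rose, 1 fell and 1 did neither. Atp5mc1 measured 10.50, 10.93 and 10.98 in 18-month tumours, 10.32, 10.38 and 10.51 in homozygous tumours and 10.07, 10.37 and 10.52 in heterozygous tumours at 9 months. In 4 of the 18-month tumours it lay between 10.91 and 10.98, and in replicates 4 and 5 it was 10.57 and 10.50, next to the other groups. The rise was 0.46 (SE 0.09, 1.37-fold, limma adjusted p = 0.00128) and was 0.60 without those 2 replicates. Between the genotypes Atp5mc1 differed by 0.04 (SE 0.09).

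Atp5mc2 measured 11.93, 12.05 and 12.19 in 18-month tumours, 12.13, 12.28 and 12.43 in homozygous tumours and 12.22, 12.36 and 12.39 in heterozygous tumours at 9 months. Every 18-month tumour, replicates 4 and 5 included, lay below every heterozygous tumour at 9 months. The fall was 0.27 (SE 0.06, 0.827-fold, limma adjusted p = 0.00178), and its 2 probe sets gave -0.27 and -0.23. Atp5mc3 measured 11.29, 11.44 and 11.56 in 18-month tumours against 11.32, 11.44 and 11.55 in heterozygous tumours at 9 months, a difference of 0.0042 with a 95% interval from -0.11 to 0.12. Its dimmer probe set differed by 0.07 and did not pass either.

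The promoters of the 3 c subunit genes are shown because the genes share a product and differ in how they moved. The windows and the capitals are as for complex II, at chr10:81523296-81523595 for Atp5mc1, chr7:135678169-135678468 for Atp5mc2 and chr3:79220615-79220914 for Atp5mc3, each on the minus strand.
Atp5mc1: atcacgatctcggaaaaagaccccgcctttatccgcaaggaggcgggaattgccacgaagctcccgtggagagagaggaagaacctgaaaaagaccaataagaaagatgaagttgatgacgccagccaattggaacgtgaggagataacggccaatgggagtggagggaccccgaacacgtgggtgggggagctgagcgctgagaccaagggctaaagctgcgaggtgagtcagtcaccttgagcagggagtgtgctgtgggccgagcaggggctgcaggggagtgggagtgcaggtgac
Atp5mc2: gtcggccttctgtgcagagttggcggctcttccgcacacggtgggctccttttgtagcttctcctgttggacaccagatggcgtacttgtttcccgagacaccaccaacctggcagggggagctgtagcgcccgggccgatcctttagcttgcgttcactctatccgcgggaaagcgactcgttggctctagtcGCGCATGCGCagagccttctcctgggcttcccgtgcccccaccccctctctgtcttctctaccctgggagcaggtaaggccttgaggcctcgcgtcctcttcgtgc
Atp5mc3: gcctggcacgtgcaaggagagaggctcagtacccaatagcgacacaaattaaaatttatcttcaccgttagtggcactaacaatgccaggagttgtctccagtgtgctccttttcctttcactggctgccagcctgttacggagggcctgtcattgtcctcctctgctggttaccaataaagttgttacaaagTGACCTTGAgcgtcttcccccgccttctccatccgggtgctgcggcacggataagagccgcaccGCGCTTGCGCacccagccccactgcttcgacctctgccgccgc
Atp5mc1 held no exact match of the 4 motifs, Atp5mc2 held 1 stretch that matches the Nrf1 motif on both strands, and Atp5mc3 held 1 match each of the Nrf1 and oestrogen-related receptor alpha motifs.

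Of the other ATP synthase genes, Atp5po, the oligomycin sensitivity protein of the stalk, fell by 0.19 (SE 0.07, limma adjusted p = 0.0286) and is named after its values were seen. Its call was lost without heterozygous replicates 4 (-0.15, limma adjusted p = 0.0735) or 5 (-0.17, 0.0663) of 9 months and without 18-month replicates 1 (-0.17, 0.057), 3 (-0.16, 0.07) or 6 (-0.17, 0.0616). Between the genotypes the smallest p was that of Atp5pb, a stator subunit, at -0.13 (SE 0.05, limma adjusted p = 0.481), and the largest difference that of Atp5mg, a membrane subunit of the dimer interface, at -0.20 (SE 0.09, limma adjusted p = 0.551). Atp5f1d, the delta subunit of the shaft, was 0.04 higher (SE 0.07).

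**Figure D4:**
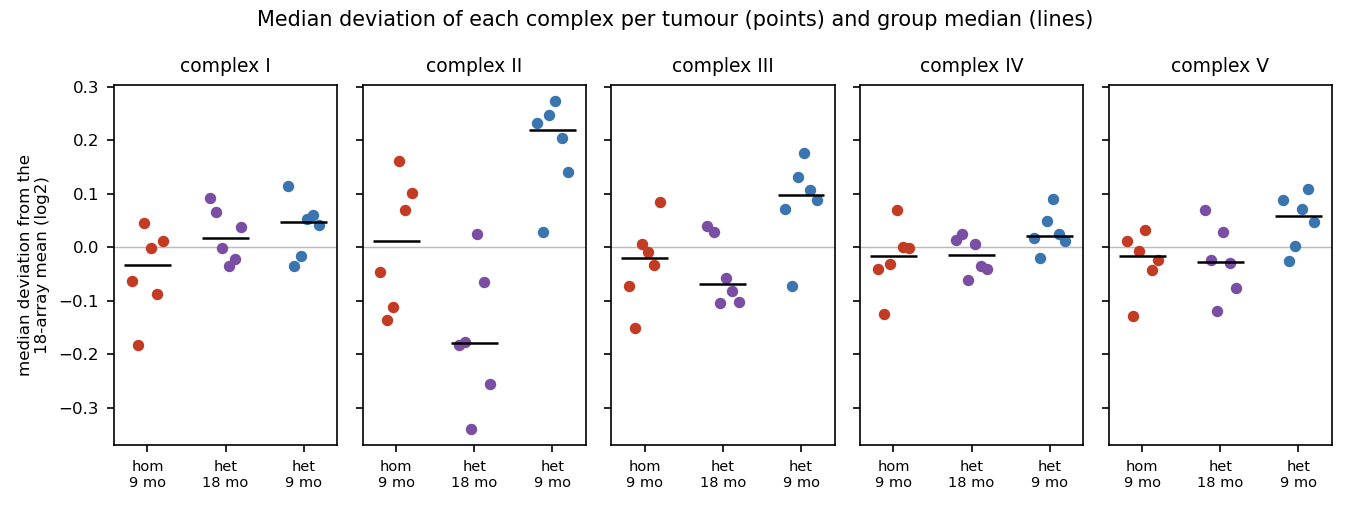
Median deviation of the genes of each complex from their 18-tumour means (log2) in each tumour (points), with group medians as lines, for homozygous tumours at 9 months, heterozygous tumours at 18 months and heterozygous tumours at 9 months. Complex II spreads widest, between -0.339 and 0.273, and is highest in heterozygous tumours at 9 months, and homozygous replicate 2 is the lowest tumour for complexes I, III, IV and V.

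Enzymes that feed the chain changed in larger shares, beside 44.1% of all genes. Of the tricarboxylic acid cycle and pyruvate dehydrogenase list 5 of 23 genes rose and 13 fell (78.3% called, median -0.25). Pdp1, a phosphatase that switches pyruvate dehydrogenase on, fell by 0.53 (SE 0.08), the succinyl-CoA ligase subunit Suclg2 by 0.83 (SE 0.14) and Pdha1, the E1 alpha subunit of pyruvate dehydrogenase, by 0.57 (SE 0.11), while Pc, pyruvate carboxylase, rose by 0.49 (SE 0.09). Of 18 genes of mitochondrial fatty acid oxidation 1 rose and 13 fell (77.8% called, median -0.43). Echs1, the enoyl-CoA hydratase, fell by 0.40 (SE 0.07), Acads, the short-chain acyl-CoA dehydrogenase, by 0.44 (SE 0.08), and Decr1 and Eci1, which handle unsaturated fatty acids, by 0.79 (SE 0.15) and 0.72 (SE 0.14). The adjusted p-values of these 8 genes lay between 0.00041 and 0.0011 in the same limma fit. Other genes of pyruvate dehydrogenase, named after their values were seen, moved both ways. The kinases Pdk4 and Pdk2, which switch the enzyme off, fell by 1.597 (SE 0.34, limma adjusted p = 0.0016) and 0.95 (SE 0.20, 0.0017), and the phosphatase Pdp2 fell by 0.58 (SE 0.19, 0.021). The E1 beta subunit Pdhb and the E2 subunit Dlat rose by 0.21 (SE 0.08, limma adjusted p = 0.042) and 0.20 (SE 0.08, 0.043), while Pdhx and Dld, which complete the complex, fell by 0.41 (SE 0.09, 0.003) and 0.24 (SE 0.07, 0.014). The kinases Pdk1 (0.28) and Pdk3 (-0.14) did not pass. Between the genotypes none of either list passed, and 17 of 18 fatty acid oxidation genes lay below 0 (median -0.16), with Acads at -0.20 and Etfb, an electron transfer flavoprotein subunit, at -0.17. Sucla2 and Suclg2, subunits of succinyl-CoA ligase, lay at -0.20 and -0.27.

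Assembly factors help to build the complexes. Of the 34 genes of this list 6 rose with age and 2 fell (23.5% called, median -0.01), a smaller share than the 44.1% of all genes. One that rose, Ndufab1 (0.13, SE 0.05, limma adjusted p = 0.0346, named after its values were seen), encodes the acyl carrier protein, which is itself a subunit of complex I whose symbol the rule for subunit genes did not match. Ttc19 and Uqcc2, both needed for complex III, rose by 0.43 (SE 0.08, limma adjusted p = 0.001) and 0.65 (SE 0.13, 0.0013), although none of the 7 complex III subunit genes rose. The other complex III factors measured, Bcs1l (-0.01), Lyrm7 (0.12) and Uqcc3 (-0.06), named after their values were seen, did not pass. The factors that fell were Sdhaf3 (-0.36, SE 0.09, limma adjusted p = 0.0036) and Sdhaf2 (-0.17, SE 0.05, adjusted p = 0.013), both of complex II, of whose 4 subunit genes 3 fell. Sdhaf1, also a complex II factor and named after its values were seen, differed by 0.05 and did not pass (SE 0.07, limma adjusted p = 0.604). Without 18-month replicates 4 and 5 the number of assembly factors called was 14, in a fit that called 6131 of all 11370 genes. Atp5if1 is in this list and among the subunit genes, and did not pass. Between the genotypes Cox20 (-0.18) and Sdhaf3 (-0.21) had the smallest p, and neither passed.

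Of 25 regulators of mitochondrial biogenesis 2 rose and 6 fell with age (32% called, median -0.06), a smaller share than the 44.1% of all genes, with the share that fell (24%) near the 22.4% of all genes. Ppargc1a, the coactivator PGC-1alpha, fell by 1.302 (SE 0.32, limma adjusted p = 0.0037), Myc by 1.03 (SE 0.30, adjusted p = 0.011) and the forkhead factor Foxo3 by 0.48 (SE 0.10, adjusted p = 0.0014). Ppargc1a averaged 9.06 ± 0.95 at 18 months and 10.4 ± 0.14 at 9 months (SD, n = 6 each), so the older tumours varied most. Esrrb, an oestrogen-related receptor, rose by 0.30 (SE 0.10, limma adjusted p = 0.02), a call that held in 16 of 18 fits that each left out 1 tumour (adjusted p of 0.0526 without 18-month replicate 2). In homozygous tumours Esrrb was 0.51 higher (SE 0.10, limma adjusted p = 0.118), and Polrmt, the mitochondrial RNA polymerase, was 0.13 higher (SE 0.05, limma adjusted p = 0.495). Neither passed. Both lay wholly above the heterozygous tumours at 9 months, as did 0.651% of all genes.

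**Figure D5:**
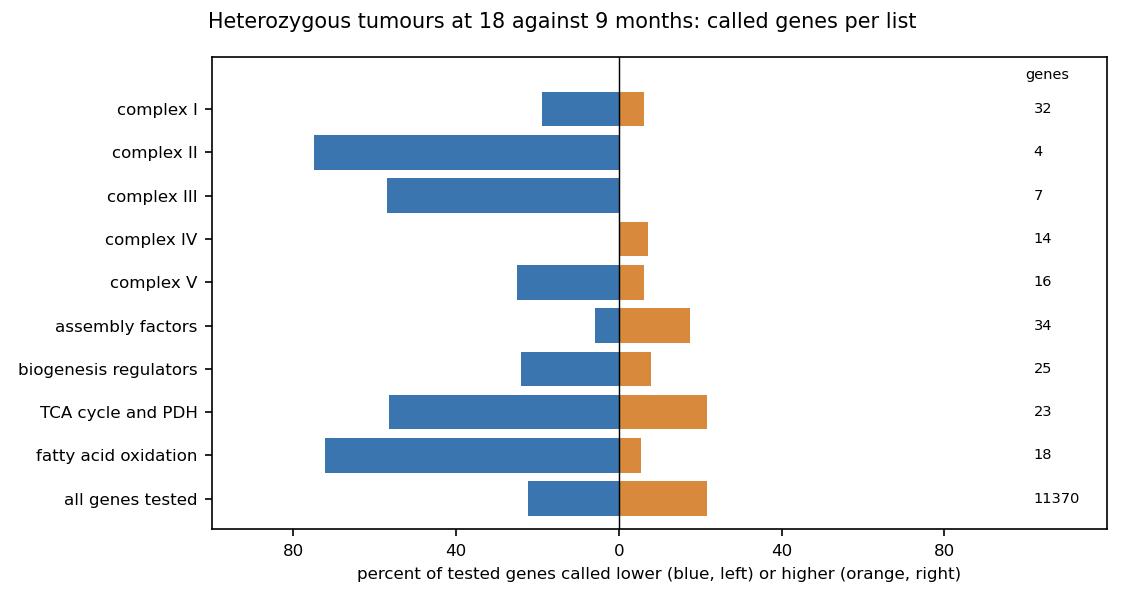
Percent of the tested genes of each complex and pathway list that fell (blue, to the left) or rose (orange, to the right) in heterozygous tumours at 18 against 9 months, with the number of genes tested at the right and all 11370 genes at the bottom. Complexes II and III fell without rises, complex IV had 1 rise, and the lists of the tricarboxylic acid cycle and fatty acid oxidation had 78.3% and 77.8% of genes called.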

How the data were processed

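Total RNA of 18 tumours was amplified with a whole-transcript kit and biotin-labelled, per the labels' protocols. The authors deposited log2 values. The submitters' processing notes name Affymetrix Expression Console 1.3.0.187 and RMA, with no order or role given. Of 29214 probe sets the platform annotation gave 15310 exactly 1 gene symbol, 323 several and 13581 none. The probe set with the highest mean stood for its gene (12 subunit genes had more than 1), and genes with a mean at or above the 30th percentile of all probe sets (6.32) were tested. Group means were fitted over all 18 arrays with limma 3.58.1 in R 4.3.3, with Benjamini-Hochberg adjustment over all genes tested, two-sided. All SEs and adjusted p-values are those of limma. The members and lists were chosen with earlier results of these data known. Named were the core subunits, tissue isoforms, up to 10 called genes with the smallest p per direction (3 where none was called), the smallest p and largest difference of each complex, and up to 4 called genes per list (2 where none was called). List entries found were 34 of 54 assembly factors, 25 of 27 regulators, 23 of 28 genes of the tricarboxylic acid cycle, 18 of 18 of fatty acid oxidation and 0 of 26 names of mitochondrially encoded subunits. Alternatives were other filters, scalings, variance models, probe set choices, marker means as covariates, a replicate block and leaving out arrays. The fit was tested on simulated data. Homozygous tumours at 9 months were not set against heterozygous ones at 18 months, since genotype and age cannot be told apart there. A planned comparison of subunit protein sequences was not made. Arrays carry no read depth, so the 6 tumours a group set the precision.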

Additional observations from a re-analysis of the deposited data

Results flagged for a closer look

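In 7 of 141 groups of 6 tumours (5.0%) 1 tumour stood apart from its group by Dixon's test, and chance gives about 1 in 20. Homozygous replicate 2 was low in 3 of these. It measured 12.33 for Atp5f1b against 12.522 to 12.601 in the other homozygous tumours and 9.451 for Cox5b against 9.637 to 9.688. Its median deviation over the 75 subunit genes was -0.169 against -0.054 to 0.015. Homozygous replicate 4 was high for Sdhb at 10.367, against 10.064 to 10.147. Replicate 4 of the 18-month group was high for Uqcrc1 at 10.333, against 10.185 to 10.24. Among heterozygous tumours at 9 months, replicate 1 was high for Cox6b2 at 7.716, against 7.168 to 7.289, and replicate 3 for Ndufv1 at 10.922, against 10.696 to 10.779.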

How the results depend on the processing

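In the genotype comparison 0 subunit genes passed under the alternatives run, except 1 with array weights (lower). That fit called 50 of all 11370 genes lower and 68 higher. In the age comparison 4 rose and 17 fell. Leaving out each tumour in turn gave 2 to 5 and 11 to 20, with 2 rises without heterozygous replicate 4 of 9 months or 18-month replicates 1, 2 or 6, and 11 falls without 18-month replicate 6. Over all 11370 genes the same fits gave 2071 to 2860 rises and 2157 to 2880 falls, with the most of both without 18-month replicate 4. Of the 21 calls 13 held in all 18 such fits, and none held under all of the other settings. Fits without a homozygous tumour leave every age difference as it was and change only its SE and p-value, so they test these calls little. Of the marker covariates, the C cell mean left 0 rises and 0 falls, the follicular mean 0 and 1, the parathyroid mean 1 and 6, and the skeletal muscle mean 3 and 9. Over all genes the same covariates left 0 and 0, 83 and 73, 1307 and 1306, and 2125 and 2128. With the C cell mean 4 genes changed sign, none of them past the threshold: Atp5f1b (0.0090), Ndufb8 (-0.12), Ndufs7 (0.044) and Sdhc (0.062). With it the medians were -0.052 for complex II and -0.015 for complex V with age and -0.034 for complex II between the genotypes. With the follicular mean the median with age was -0.11 over all subunit genes and -0.097 for complex IV. That of complex IV was -0.094 after a further quantile normalization and -0.0083 with no filter or a filter at the 50th percentile. Centring on array medians left 11 falls (2328 over all genes), and a fit of only the compared groups 2 rises (2292 over all genes). Without 18-month replicates 4 and 5 there were 7 rises, and the complex I median was 0.023.

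Of the lists, assembly factors (8 called with age) had 0 with the C cell or follicular mean, 4 with the parathyroid mean, 14 without 18-month replicates 4 and 5, and 6 to 12 without each tumour. Biogenesis regulators (8) had 0, 0 and 2 with these means and 4 to 12 without each tumour. Between the genotypes 1 was called in a fit of only the compared groups or with array weights, fits that called 24 and 118 of all genes. Fatty acid oxidation (14) had 0 with either of the first 2 means (13 to 15 without each tumour), and the tricarboxylic acid cycle list (18) had 0 and 1 (15 to 18). The cause of these changes was not tested.

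Tumours of the same replicate number did not deviate together throughout (correlations from -0.139 to 0.301 for genotype and from -0.127 to 0.327 for age). In the genotype comparison the best-correlated tumour had the same number for replicate 6. In the age comparison it had the same number for replicates 2, 4 and 5. For the remaining replicates it had another number. A shared batch or pairing of tumours with the same number was not tested, and such mixed correlations cannot decide it. With the replicate number as a block 0 genes passed between the genotypes. With age 3 subunit genes then rose and 14 fell, beside 2341 and 2525 of all genes. Of 2700 values of the 41 named subunit genes over 33 alternatives, 2437 kept their direction and side of the threshold. These include genes and comparisons without a call, so the number says little about how firm the calls are. A call was lost with the direction kept in 134 values, and 4 others reversed a called direction. The 18 arrays limit what can be seen, and small differences between subunits may go unseen.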
